A study of Homo sapiens with 34 samples.

Results

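The 32 genes examined here are known as imprinted, that is, expressed mainly from the copy of 1 parent. For some of them this holds only in certain tissues, such as neurons for UBE3A. They were taken from a list of known imprinted loci, and each was given 2 kb on both sides of its RefSeq span on hg38, out of 59098 RefSeq genes on the autosomes and X. The measurements were 34 lists of CUT&Tag peaks, 1 per library, made with a rabbit antibody named only as anti-H3K9me, so the degree of methylation is not given. CUT&Tag places a transposase at an antibody-bound mark and sequences the DNA cut there.

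Libraries came from PC3 DM (prostatic adenocarcinoma) and COLO320 DM (colorectal adenocarcinoma), lines that carry the oncogene MYC on extrachromosomal DNA. The perturbations were CRISPR-based and epigenomic, and the labels name neither the effector nor what the vector carries. The protocol gives 700 ng of sgRNA plasmid per transfection without setting the vector apart, collection after 3 days, and 50000 nuclei per library. PC3 DM was transfected with Lipofectamine LTX and had 2 vector libraries, 3 each of ecSE1, ecSE2, ecSE6 and ecSEcombo, and 2 of ecSE7. COLO320 DM was transfected with Lipofectamine 3000 and had 3 libraries each of vector, ecSE1, ecSE2, ecSE3, ecSE4 and ecSEcombo. The labels do not give the genome positions of the ecSE elements, and do not say that libraries of 1 group came from separate cultures, so the tests measure the spread between libraries, which may be technical.

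Imprinted clusters are governed by control regions that carry DNA methylation on 1 parental copy. At those copies the zinc finger protein ZFP57 recognises a methylated hexamer and, with TRIM28 and the methyltransferase SETDB1, keeps H3K9 methylation and DNA methylation in place. Many control regions lie at the start of a member gene, such as KCNQ1OT1, MEST, PLAGL1, SNRPN or PEG3, while those of H19 and IGF2 and of DLK1 and MEG3 lie between the genes. The peak lists do not separate the parental copies, and a mark in fewer cells cannot be told apart from a weaker mark in every cell. A peak absent from a list means only that none passed the authors' threshold in that library.

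The hexamer can be shown in promoter windows, 250 bases before to 50 after a listed transcription start, from RefSeq (GRCh38.p14). Listed starts were matched for 18 of the 32 genes, 46 starts in all. The letters TGCCGC were searched on both strands (GCGGCA on the printed strand), and overlapping matches were counted separately. At least 1 match was found in 45.7% of the 46 windows and in 16.8% of all 34961 listed promoters, and at least 2 matches in 13.0% and 2.77%. Starts of 1 gene overlap, so the 46 windows are not independent, and their median number of CpG dinucleotides was 18 against 14 in all promoters. MEST and DIRAS3 were the only genes with 2 or more matches in a window that also overlapped a peak in 3 or more lists. Their windows are followed by 2 of the windows with 2 matches and a peak in 0 lists. Capitals mark the matches.
MEST, chr7:130491835-130492134, + strand: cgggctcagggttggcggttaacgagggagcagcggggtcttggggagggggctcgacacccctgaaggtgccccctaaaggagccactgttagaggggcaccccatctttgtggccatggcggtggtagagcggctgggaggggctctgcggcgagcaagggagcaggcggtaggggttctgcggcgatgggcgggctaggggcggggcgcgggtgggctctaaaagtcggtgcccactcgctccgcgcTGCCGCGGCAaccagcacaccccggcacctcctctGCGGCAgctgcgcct
DIRAS3, chr1:68050578-68050877, - strand: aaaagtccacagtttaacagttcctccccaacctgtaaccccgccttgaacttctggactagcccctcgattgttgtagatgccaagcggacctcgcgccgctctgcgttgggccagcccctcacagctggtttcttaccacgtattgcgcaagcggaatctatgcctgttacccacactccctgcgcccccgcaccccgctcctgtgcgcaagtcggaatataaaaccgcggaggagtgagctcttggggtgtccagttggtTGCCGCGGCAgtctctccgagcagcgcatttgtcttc
PLAGL1, chr6:144008210-144008509, - strand: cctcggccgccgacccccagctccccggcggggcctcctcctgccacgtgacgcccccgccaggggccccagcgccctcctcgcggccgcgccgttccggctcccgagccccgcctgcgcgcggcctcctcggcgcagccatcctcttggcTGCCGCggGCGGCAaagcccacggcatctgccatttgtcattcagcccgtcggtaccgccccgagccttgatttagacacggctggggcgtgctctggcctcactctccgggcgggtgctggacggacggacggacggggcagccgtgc
SNRPN, chr15:24954737-24955036, + strand: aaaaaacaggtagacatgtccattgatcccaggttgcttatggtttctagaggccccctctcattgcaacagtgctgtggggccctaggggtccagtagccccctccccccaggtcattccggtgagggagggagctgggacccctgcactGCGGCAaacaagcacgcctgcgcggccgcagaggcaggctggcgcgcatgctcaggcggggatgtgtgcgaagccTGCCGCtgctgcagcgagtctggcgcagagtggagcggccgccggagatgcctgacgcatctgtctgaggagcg
The MEST window, with 3 matches, overlapped a peak in 4 COLO320 DM lists and 0 PC3 DM lists. The DIRAS3 window overlapped a peak in 2 COLO320 DM lists and 1 PC3 DM list. A peak in 3 or more lists was found over 6.52% of the 46 windows and over 0.432% of all promoters. A match is a run of letters, and no binding was measured.

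Depth of reads was not used here, and the lists differed in length from 9385 peaks (COLO320 DM vector replicate 2) to 125214 (COLO320 DM ecSE1 replicate 2). PC3 DM lists held 36008 ± 23610 peaks (SD, n = 16) and COLO320 DM lists 25454 ± 25519 (SD, n = 18). Only COLO320 DM ecSE1 replicate 2 and PC3 DM ecSEcombo replicate 1 (102290 peaks) exceeded 100000. Values are therefore given both from the lists as deposited and from equal-length lists, the 9385 best peaks of each library by q-value and then fold. In number of the 32 genes with a peak the order of the lines also depended on length: 11.9 ± 3.48 per PC3 DM list (SD, n = 16) and 10.0 ± 3.9 per COLO320 DM list (SD, n = 18) as deposited, and 5.56 ± 2.19 and 6.33 ± 1.71 at equal length, differences within the spread. No 2 lists shared more than 0.208% of their peaks exactly.

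Peaks were found at 28 of the 32 imprinted genes in at least 1 of the 34 lists, and at 10 of the 32 (31.2%) in at least 17 lists. Among all RefSeq genes 8.99% were in at least 17 lists. Long genes collect more peaks, and the recurrent members were mostly long. TRAPPC9, a trafficking-complex subunit that spans 731 kb, had a peak in all 34 lists. KCNQ1, a potassium channel gene of 404 kb, had one in 33 lists, and KCNQ1OT1, the long noncoding RNA antisense to it, in 32. GRB10, an adaptor that dampens insulin receptor signalling, followed with 24 lists, ZIM2 with 23 and PLAGL1 with 21. SNRPN, UBE3A and KCNK9 each had 20, and IGF2R 19. At the other end, H19, MKRN3, NNAT and NAP1L5 had a peak in 0 of 34 lists, and IGF2, CDKN1C, PHLDA2, MAGEL2, DLK1 and BLCAP in 1 list each. The heat map of covered length by library shows this order.

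**Figure D1:**
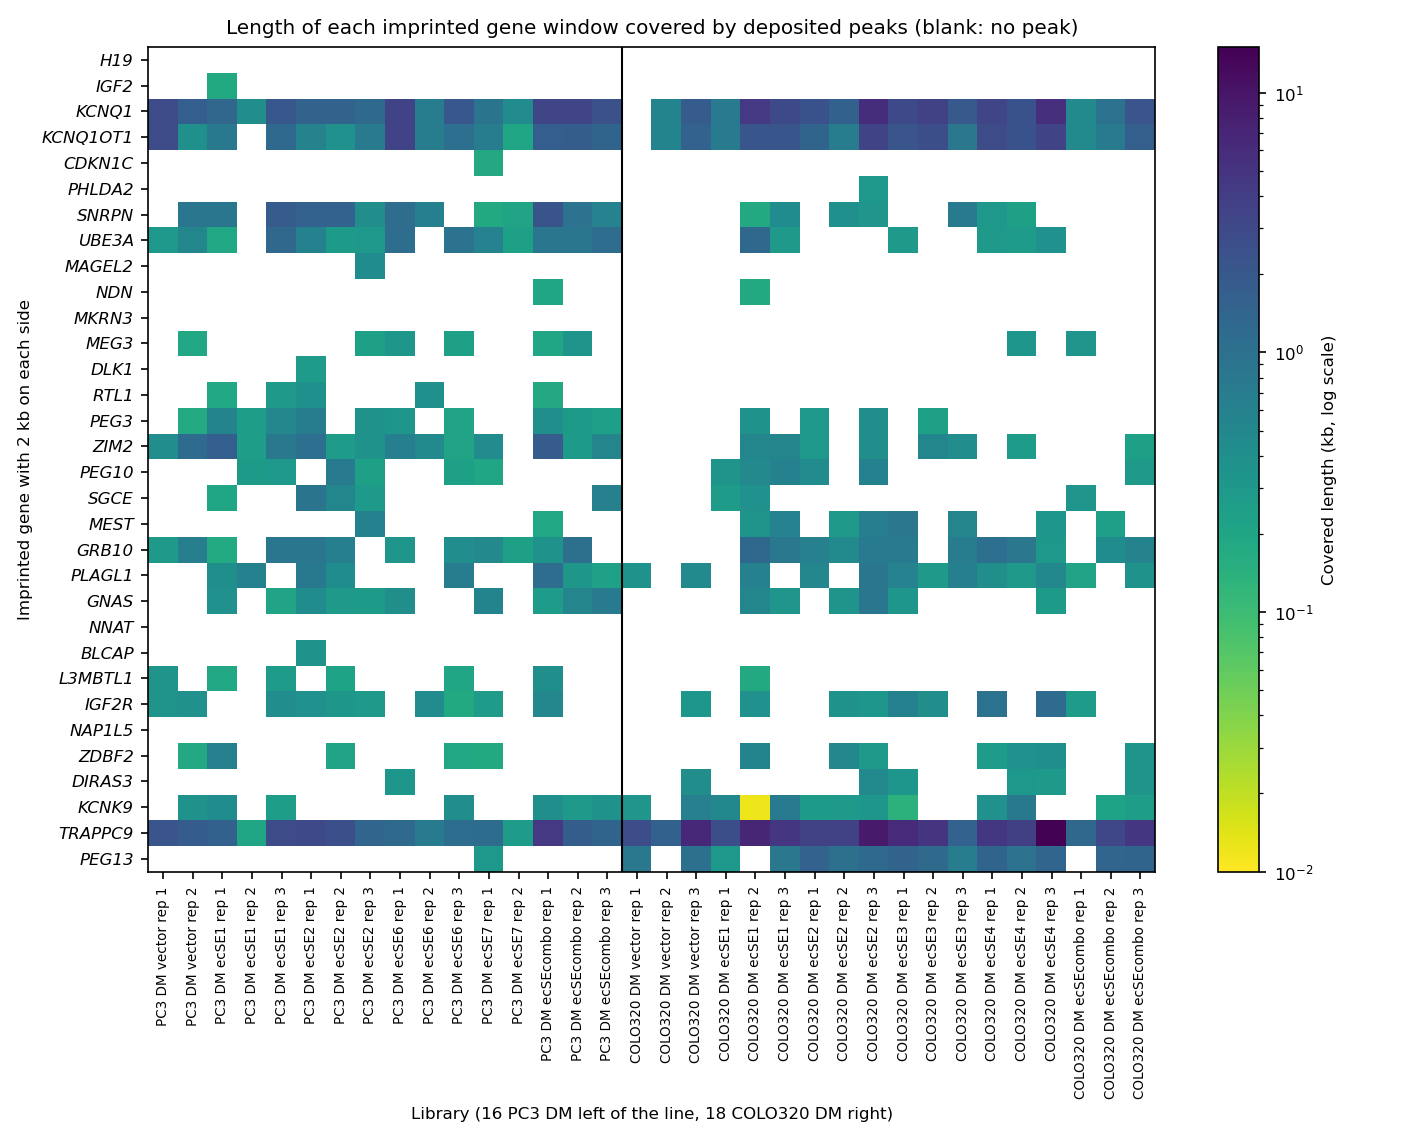
Length of each imprinted gene window covered by deposited peaks (rows: 32 genes with 2 kb on each side; columns: 34 libraries; colour: covered kb on a log scale; blank: no peak). TRAPPC9, KCNQ1 and KCNQ1OT1 are filled in nearly every column, PEG13 is filled in 15 COLO320 DM columns and 1 PC3 DM column, and H19, MKRN3, NNAT and NAP1L5 are blank throughout.

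Set against genes of similar length (within 1.5-fold), few members stood high. PEG13 had a peak in 15 COLO320 DM lists, a number reached or passed by 0.694% of 12815 genes of like length. DIRAS3 reached 6 COLO320 DM lists, as did 2.79% of such genes. ZIM2 was in 15 PC3 DM lists, matched by 3.6%, PEG3 in 11, matched by 5.79%, and KCNQ1OT1 in 15 PC3 DM and 17 COLO320 DM lists, matched by 5.51% and 6.8%. For TRAPPC9, KCNQ1 and GRB10 these shares were 33.3% or more. Some windows overlap, so a peak can count for both KCNQ1 and KCNQ1OT1, PEG3 and ZIM2, PEG10 and SGCE, NNAT and BLCAP, or TRAPPC9 and PEG13.

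The merged windows of the 32 genes, 27 windows of 2.53 Mb in all, were covered about as much as other gene windows in PC3 DM. In COLO320 DM they were covered more, but hardly more without the members on chromosome 8, and about as much in the vector libraries. In PC3 DM 0.302% ± 0.151 of their length was covered (SD, n = 16), against 0.3% of all gene windows, and the ratio of both shares was 0.989 ± 0.235. In COLO320 DM 0.391% ± 0.239 was covered (SD, n = 18), against 0.273%, a ratio of 1.42 ± 0.519. With equal-length lists the ratios were 0.95 ± 0.425 and 1.39 ± 0.33. In COLO320 DM the ratio was 0.96 ± 0.304 in vector libraries (SD, n = 3) and 1.51 ± 0.509 in perturbed ones (SD, n = 15). At equal length these were 1.07 ± 0.383 and 1.45 ± 0.292, and the ranges overlapped under both. In PC3 DM the ratio as deposited was 1.0 ± 0.109 in vector libraries (SD, n = 2) and 0.987 ± 0.251 in perturbed ones (SD, n = 14). These splits were not tested. Without the 3 members on chromosome 8 (KCNK9, TRAPPC9 and PEG13) the order of the lines turned on the lists as deposited: the covered share was 0.342% ± 0.163 for PC3 DM and 0.289% ± 0.2 for COLO320 DM. It did not turn at equal length, where the shares were 0.107% ± 0.0611 and 0.136% ± 0.0727. The COLO320 DM shares were then near those of all gene windows in that line, 0.273% as deposited and 0.133% at equal length. For the shares as deposited, and for those without chromosome 8, the spread between libraries was wider than the difference between the lines. With all members at equal length the shares were 0.0931% ± 0.0532 in PC3 DM and 0.187% ± 0.0637 in COLO320 DM. That difference, and that between the equal-length ratios, was wider than either SD. The difference between the ratios as deposited was wider than the PC3 DM SD only. The ranges of the lines overlapped in each case.

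Peaks at imprinted genes rarely fell at the same place in several lists, and peaks over the whole genome were shared about as seldom. Merged over the 34 lists, those at imprinted genes formed 556 separate sites, of which 452 (81.3%) were seen in 1 list, 32 in 5 or more lists and 7 in 10 or more. The genome was also cut into bins of 5 kb. Of the 346 bins in member windows with any peak, 1.16% had one in at least 17 lists, against 1.6% of all bins with any peak. All GRB10 sites but 1 and all PLAGL1 sites but 2 were seen in a single list. Nor did summits gather at gene ends. Within 2 kb of an end lay 26 of 509 summits in PC3 DM (5.11%) and 42 of 581 in COLO320 DM (7.23%), while these stretches made up 9.12% of the window length.

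Between the lines, 3 of the genes differed in how many libraries had a peak: PEG13 was marked more often in COLO320 DM, and UBE3A and ZIM2 more often in PC3 DM. Vector and perturbed libraries of each line were pooled here. The lines also differed in transfection reagent and in part of the perturbations, which the comparison cannot tell apart from the line. The single sites described from here on were picked after their values were seen. Presence of a peak was compared gene by gene with Fisher's exact test, two-sided, over the 22361 genes with a peak in at least 3 libraries and none in at least 3. The p-values were adjusted by Benjamini-Hochberg over all genes tested, and are called adjusted exact p. Of the genes tested, 6.24% passed at 0.05, 2.1% higher in COLO320 DM and 4.15% higher in PC3 DM. Of the 32 imprinted genes 18 could be tested and 3 passed, 1 higher in COLO320 DM and 2 in PC3 DM. With equal-length lists 14.7% of 9342 genes passed (8.37% and 6.37% in the same order), and 3 of 16 imprinted genes: PEG13, ZIM2 and PEG3.

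**Figure D2:**
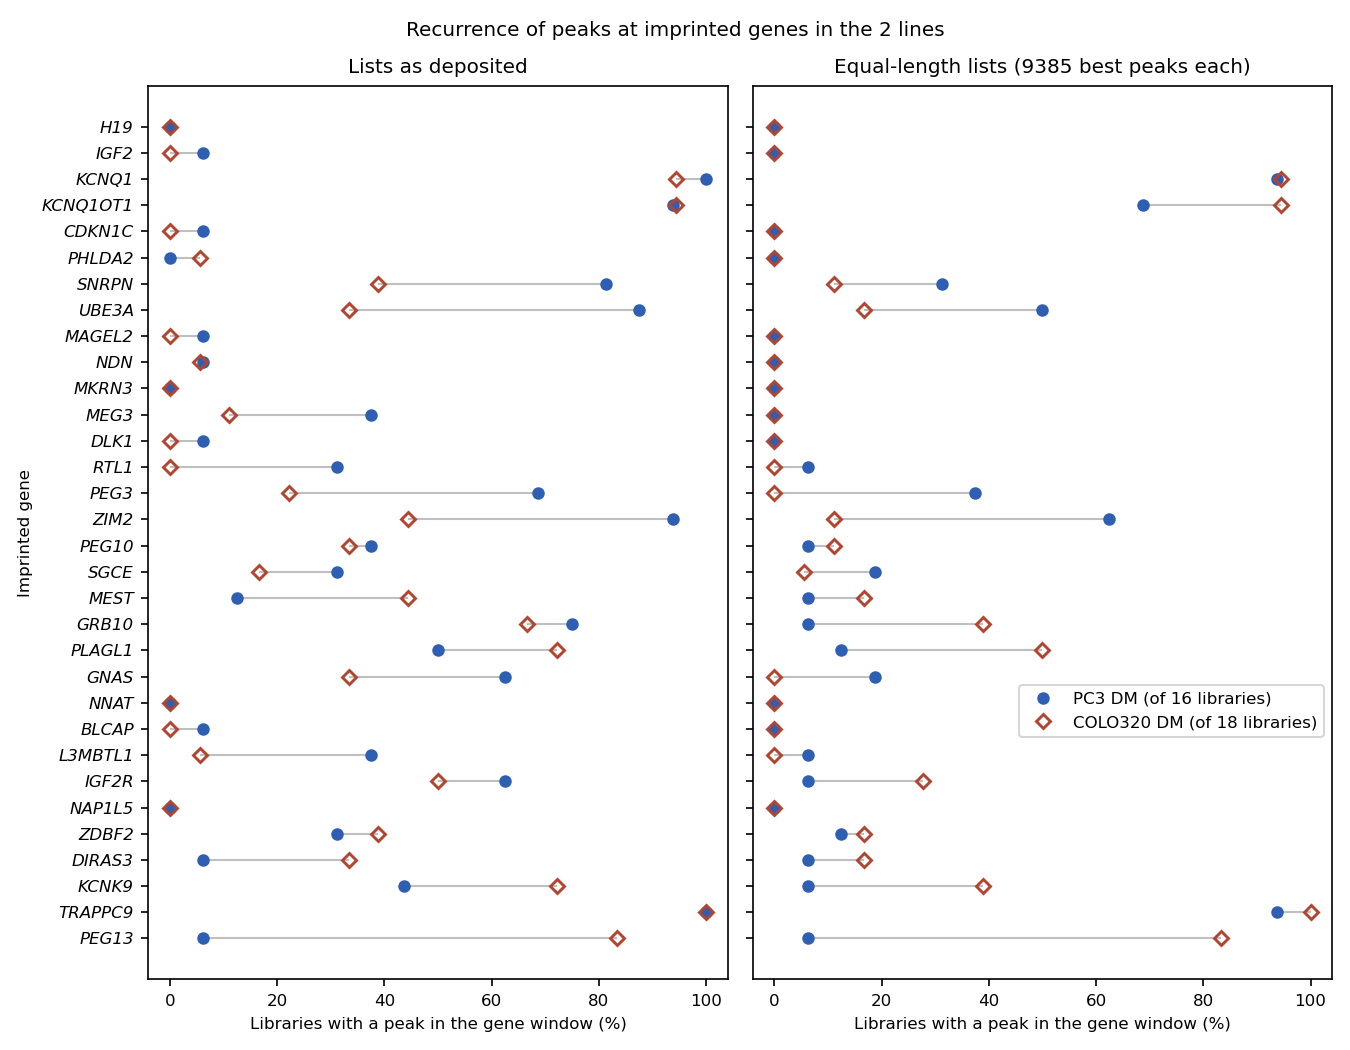
Percent of libraries with a peak in each imprinted gene window (x axis) for the 32 genes (y axis), from the lists as deposited (left) and equal-length lists (right). Filled circles are PC3 DM (16 libraries) and open diamonds COLO320 DM (18 libraries). The widest gap is at PEG13, at 83.3% for COLO320 DM against 6.25% for PC3 DM in both panels.

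PEG13 is a paternally expressed noncoding RNA (chr8:140094894-140100535) inside an intron of TRAPPC9, and its start carries a maternally methylated region. In COLO320 DM the covered length of its window was 808, 0 and 1019 bp in the 3 vector libraries. It was 303, 0 and 829 bp with ecSE1, 1517, 1002 and 1216 bp with ecSE2, and 1470, 1198 and 683 bp with ecSE3. It was 1415, 988 and 1390 bp with ecSE4 and 0, 1370 and 1439 bp with ecSEcombo. In PC3 DM 15 of 16 libraries had 0 bp and ecSE7 replicate 1 had 306 bp. A peak was thus found in 15 of 18 libraries of COLO320 DM and 1 of 16 of PC3 DM (adjusted exact p = 0.000985, and 0.000269 with equal-length lists, where the counts were the same). The call held when any 1 of the 34 libraries was left out, with adjusted exact p from 0.000346 to 0.0019.

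All PEG13 peaks merged into 1 site of 2031 bp (140098044 to 140100074), with the median summit 1283 bp inside the upper end of the gene. The authors' fold at the summits ran from 2.33 to 6.17 with a median of 3.58. Of the 13 other genes within 2 Mb that could be tested, 0 were called higher in COLO320 DM and 2 higher in PC3 DM. KCNK9, a maternally expressed potassium channel gene in the same cluster, had a peak in 13 of 18 libraries of COLO320 DM and 7 of 16 of PC3 DM (adjusted exact p = 0.374). TRAPPC9 had a peak in every deposited list and could not be tested, but its covered length was 4741 ± 3144 bp in COLO320 DM (SD, n = 18) and 1706 ± 1078 bp in PC3 DM (SD, n = 16), with overlapping ranges (1312 to 14368 bp and 206 to 4397 bp). Its most shared site (139860192 to 139862435) was in 14 COLO320 DM and 11 PC3 DM lists.

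In the KCNQ1 domain on chromosome 11, KCNQ1OT1 is transcribed from the paternal copy and its start, inside KCNQ1, is the control region of CDKN1C and PHLDA2. Covered length over KCNQ1OT1 was 1643 ± 1032 bp in COLO320 DM (SD, n = 18; from 0 to 3392, median 1560) and 1105 ± 921 bp in PC3 DM (SD, n = 16; from 0 to 3383, median 751). The groups overlapped over nearly their whole range. Equal-length lists had a peak there in 17 of 18 libraries of COLO320 DM and 11 of 16 of PC3 DM (adjusted exact p = 0.222). The peaks lay mostly within the transcribed body. The most shared site (2644774 to 2646258) was in 16 COLO320 DM and 8 PC3 DM lists, with its median summit 36964 bp from the nearer gene end. Another (2660685 to 2661914) was in 8 and 10 lists, and 1 more (2639584 to 2640557) in 11 and 1.

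At the upper end of KCNQ1OT1 (2699994), beside which the control region lies, a site from 2698896 to 2699563 was in 5 COLO320 DM lists and 1 PC3 DM list. All 5 COLO320 DM lists kept it at equal length. CDKN1C, a cyclin-dependent kinase inhibitor, and PHLDA2, which restrains placental growth, lie above KCNQ1 and had a peak in 1 PC3 DM and 1 COLO320 DM list, in that order.

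H19, a maternally expressed noncoding RNA, and IGF2, a paternally expressed growth factor, share a control region just before the H19 start. There, no list had a peak within H19 and 2 kb around it, nor in the 10 kb before its start (2001267 to 2011266). IGF2 had a peak in 1 PC3 DM list. Farther into the 128 kb between the genes, COLO320 DM had a recurrent site (2115678 to 2117284), 115 kb from H19 and 12.7 kb from IGF2, in 16 of 18 lists, against 4 of 16 PC3 DM lists. It covered 559 ± 320 bp in COLO320 DM (SD, n = 18; from 0 to 1103, median 576) and 94.8 ± 179 bp in PC3 DM (SD, n = 16; from 0 to 551, median 0). The authors' fold at its summits was 4.5 to 9.52. COLO320 DM vector replicate 1 and ecSE4 replicate 2 were the 2 libraries of that line without any peak in the interval.

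The same intervals were tested in bins of 5 kb over the genome, an analysis added after the sites were seen. Of 120164 bins tested, 3.47% passed, 2.88% higher in COLO320 DM and 0.598% higher in PC3 DM. With equal-length lists 18.8% of 26762 passed (15.2% and 3.61%). The bin over the H19 to IGF2 site (2115001 to 2120000) passed (16 against 4 libraries, adjusted exact p = 0.0136, and 0.0013 with equal-length lists).

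**Figure D3:**
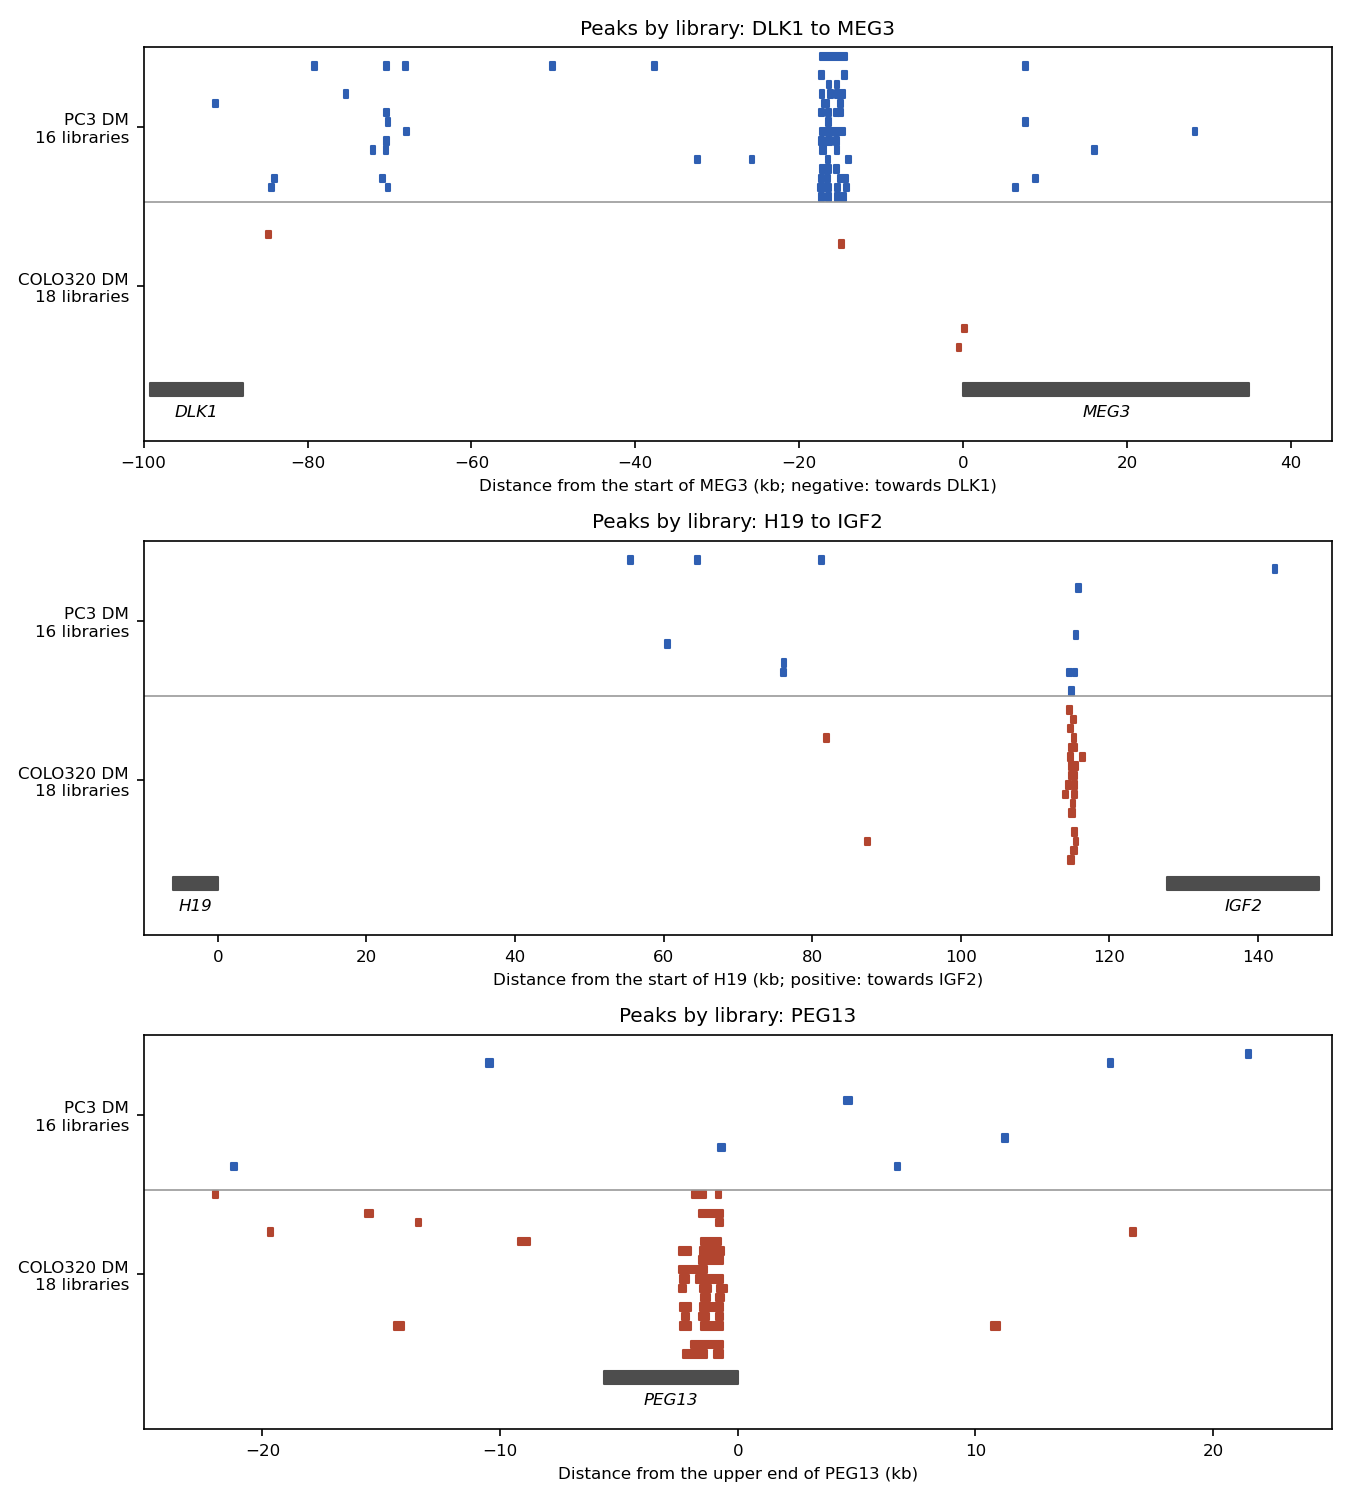
Peaks of each library (1 row per library, PC3 DM above the line and COLO320 DM below; gene bodies in grey) by distance in kb from the start of MEG3, the start of H19 and the upper end of PEG13; peaks too narrow to see are drawn wider. A column of peaks about 16.2 kb before MEG3 is seen in PC3 DM, and columns 115 kb from H19 and inside PEG13 are seen in COLO320 DM.

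The interval between DLK1, a paternally expressed membrane protein, and MEG3, a maternally expressed noncoding RNA, behaved the opposite way. This 87.9 kb stretch (chr14:100738225-100826107) holds the control region of the cluster, which was not placed by coordinates here. All 16 PC3 DM libraries had a peak in it, as deposited and at equal length. In COLO320 DM 3 of 18 libraries had one as deposited (ecSE1 replicates 1 and 2 and ecSEcombo replicate 1) and 0 at equal length. Covered length was 3191 and 984 bp in the 2 PC3 DM vector libraries, and 1592 ± 759 bp in the 14 perturbed ones (SD; from 555 to 3262, median 1456). In COLO320 DM it was 0 bp in each vector library and 60.7 ± 129 bp in the 15 perturbed ones (SD; from 0 to 360, median 0). The lowest PC3 DM library was thus above the highest COLO320 DM library.

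Most of this came from 1 site (100808386 to 100811981), whose median summit lay 16.2 kb before the start of MEG3. It was in 15 PC3 DM lists and 1 COLO320 DM list, with the authors' fold from 2.55 to 6.97. A second (100755458 to 100756224), 17.5 kb past DLK1, was in 6 PC3 DM lists and 0 COLO320 DM lists. Both 5 kb bins over the first site passed (0 against 15 libraries, adjusted exact p = 4.33e-06, and 1 against 15, adjusted exact p = 4.45e-05). The bin over the second passed too (0 against 8, adjusted exact p = 0.0242), and all 3 did with equal-length lists, at 4.14e-06, 7.39e-07 and 0.0163.

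MEG3 and RTL1 did not pass the test, and DLK1 had too few peaks for it. MEG3 had one in 6 PC3 DM and 2 COLO320 DM lists (adjusted exact p = 0.288), both of the latter within 2 kb of its start. RTL1, a retrotransposon-derived placental gene, had one in 5 PC3 DM and 0 COLO320 DM lists (adjusted exact p = 0.112). Its 5 peaks did not overlap, but 4 lay in 1 bin of 5 kb (100880001 to 100885000; adjusted exact p = 0.245). DLK1 had one in 1 PC3 DM list. Of the 54 non-member genes within 2 Mb of MEG3 that could be tested, 7 (13.0%) were higher in PC3 DM and 1 (1.85%) in COLO320 DM.

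On chromosome 15, in the Prader-Willi and Angelman region, 2 of the 5 imprinted genes, UBE3A and SNRPN, could be tested, and UBE3A passed on the lists as deposited but not at equal length. UBE3A, a ubiquitin ligase expressed from the maternal copy in neurons, had a peak in 14 of 16 PC3 DM and 6 of 18 COLO320 DM libraries (adjusted exact p = 0.0374). Its covered length was 568 ± 405 bp in PC3 DM (SD, n = 16; from 0 to 1286, median 552) and 158 ± 322 bp in COLO320 DM (SD, n = 18; from 0 to 1322, median 0). With equal-length lists 8 and 3 libraries had one and the adjusted exact p was 0.213, and leaving out 1 library ended the call in 26 of 34 cases (adjusted exact p from 0.0203 to 0.0619). It kept the call without PC3 DM ecSE1 replicate 2 or ecSE6 replicate 2, or without COLO320 DM ecSE1 replicates 2 or 3, ecSE3 replicate 1 or any ecSE4 replicate, and lost it without any other library. SNRPN, a splicing protein gene whose start holds the control region, had one in 13 PC3 DM and 7 COLO320 DM libraries (adjusted exact p = 0.122). Its 50 sites were scattered, none in more than 4 lists, and the 2 kb around its 4 listed starts had a peak in at most 2 PC3 DM lists and 0 COLO320 DM lists. MAGEL2, NDN and MKRN3, intronless genes nearby, had a peak in 1, 2 and 0 lists.

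PEG3 and ZIM2 on chromosome 19 are zinc finger genes that share a start. ZIM2 had a peak in 15 of 16 PC3 DM and 8 of 18 COLO320 DM libraries (adjusted exact p = 0.04996, and 0.0279 with equal-length lists, where 10 and 2 had one). Covered length was 646 ± 519 bp in PC3 DM (SD, n = 16; from 0 to 1771, median 455) and 179 ± 220 bp in COLO320 DM (SD, n = 18; from 0 to 535, median 0). ZIM2 lost its call in 25 of 34 runs that left out 1 library (adjusted exact p from 0.0139 to 0.0773). It kept the call without PC3 DM ecSE7 replicate 2, or without COLO320 DM ecSE1 replicates 2 or 3, ecSE2 replicates 1 or 3, ecSE3 replicates 2 or 3, ecSE4 replicate 2 or ecSEcombo replicate 3. PEG3, whose window lies inside that of ZIM2, had a peak in 11 and 4 libraries (adjusted exact p = 0.112), and with equal-length lists in 6 and 0 (adjusted exact p = 0.0412). The most shared site (56818761 to 56819180) was in 6 PC3 DM lists and 0 COLO320 DM lists, 8922 bp inside PEG3 from its nearer end. Around the shared upper end itself (56840726) 1 PC3 DM list had a peak.

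At the starts and ends examined as possible control regions, peaks recurred at a few genes in COLO320 DM and less in PC3 DM, in most cases only on the lists as deposited. Windows of 2 kb around 50 starts or gene ends of 20 genes (19 members and GNAS-AS1) were examined. A peak in 4 or more COLO320 DM lists was found at 6 genes, and in 4 or more PC3 DM lists at 0 genes. The 6 were PEG13 (15 lists), MEST (8), DIRAS3 (6), and KCNQ1OT1, GNAS and GNAS-AS1 (5 each). GNAS and GNAS-AS1 shared theirs. With equal-length lists 2 genes were left, PEG13 (15) and KCNQ1OT1 (5), while MEST and DIRAS3 had 3 each and GNAS and GNAS-AS1 0. No list had a peak at 6 of the 20 genes. Over all listed promoters, 1.17% had a peak within 2 kb in 4 or more COLO320 DM lists as deposited, against 13.0% of the 46 member starts, several of which share a peak. Those member starts belong to MEST, GNAS and DIRAS3 only, and at equal length they had a peak in at most 3 COLO320 DM lists. PEG13 and KCNQ1OT1 are not among the 46 starts.

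MEST, an imprinted gene of the hydrolase family, had a peak in 8 of 18 libraries of COLO320 DM and 2 of 16 of PC3 DM (adjusted exact p = 0.259). Its covered length in COLO320 DM was 0 in every vector library and from 0 to 819 bp in the 15 perturbed ones, with a median of 242 bp. The main site (130491872 to 130492830) was in 7 COLO320 DM lists and overlapped the printed MEST window, with a median summit 315 bp past the start at 130492085. The upstream starts of MEST (130486175 and 130486347) had a peak in 0 lists. DIRAS3, a small GTPase with growth-suppressing activity, had a peak in 6 COLO320 DM libraries and 1 PC3 DM library (adjusted exact p = 0.26), from 292 to 458 bp long. One site sat over the printed window (median summit 124 bp before the start) and another (68051722 to 68052318), in 4 COLO320 DM lists, 1406 bp before it.

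At GNAS, which encodes the stimulatory G protein alpha subunit from several starts, a peak was found in 10 PC3 DM and 6 COLO320 DM libraries (adjusted exact p = 0.38). The shared site (58850901 to 58852251; 5 COLO320 DM lists and 1 PC3 DM list) lay 1126 bp before the start at 58852716, at the upper end of the antisense GNAS-AS1. None of the 5 COLO320 DM lists kept it at equal length. PLAGL1, a zinc finger growth regulator, had a peak in 13 COLO320 DM and 8 PC3 DM libraries (adjusted exact p = 0.56), but hardly at the start printed above. That start (144008259) had one in 0 COLO320 DM lists and 1 PC3 DM list within 2 kb. Its main site (144048081 to 144048995) was in 10 COLO320 DM lists and 0 PC3 DM lists, 6817 bp past another start. The 5 kb bin over it had an adjusted exact p of 0.0688, and 0.0211 with equal-length lists.

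GRB10 had a peak in 12 libraries of each line as deposited (adjusted exact p = 0.868), and in 7 COLO320 DM libraries and 1 PC3 DM library at equal length (adjusted exact p = 0.148). Of its 40 sites 39 were in a single list. A site in its body (50671113 to 50672468) was in 9 COLO320 DM lists and 0 PC3 DM lists, and its bin passed (10 against 0 libraries, adjusted exact p = 0.0153). Together with PEG13's bin (adjusted exact p = 0.00066) and 3 bins of TRAPPC9 (adjusted exact p = 0.00655, 0.0153 and 0.0343), it made 5 of 111 tested bins within member windows that were higher in COLO320 DM, and 0 were higher in PC3 DM. That is 4.5% of the tested member bins, near the 3.47% of all bins. With equal-length lists 13.9% of 36 member bins passed, below the 18.8% of all bins, and the TRAPPC9 bins from 139925001 and 140380001 lost the call (adjusted exact p = 0.083 and 0.144). Besides the PLAGL1 bin, a bin inside KCNQ1 and KCNQ1OT1 (2640001 to 2645000) gained one. It had a peak in 12 COLO320 DM and 3 PC3 DM libraries at equal length (adjusted exact p = 0.0419), and in 14 and 4 as deposited (adjusted exact p = 0.103).

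Of the remaining members, IGF2R, the receptor that clears IGF2, had a peak in 10 PC3 DM and 9 COLO320 DM libraries (adjusted exact p = 0.774), and in 1 and 5 at equal length (adjusted exact p = 0.356). L3MBTL1, a reader of methylated histones, had one in 6 and 1 (adjusted exact p = 0.178), PEG10 in 6 and 6, SGCE in 5 and 3, and ZDBF2 in 5 and 7 (adjusted exact p from 0.688 to 1.0). BLCAP, whose intron holds NNAT, had one in 1 PC3 DM list.

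Among the other genes of imprinted clusters, 30 of 50 found could be tested. As deposited, 0 were higher in COLO320 DM (2.1% of all genes tested were) and 3 in PC3 DM (4.15% of all). With equal-length lists 15 were tested, and 1 was higher in COLO320 DM (8.37% of all genes tested were) and 2 in PC3 DM (6.37% of all). The 1 was RB1, a cell cycle inhibitor (18 against 7 libraries, adjusted exact p = 0.00387, and 0.26 as deposited with 18 against 13). MEG8, a noncoding RNA whose span overlaps that of RTL1, had a peak in 13 PC3 DM libraries and 1 COLO320 DM library (adjusted exact p = 0.0013). PWRN1, in the chromosome 15 cluster, had one in 10 and 0 (adjusted exact p = 0.00431, and 0.222 with equal-length lists). COBL, beside GRB10, had one in 16 and 7 (adjusted exact p = 0.00693). Among 22 genes for proteins that read or write imprints or H3K9 methylation, 13 were tested and 1 passed, against 6.24% of all genes, a share too close to read anything from. It was KDM4C, an H3K9 demethylase (16 PC3 DM and 5 COLO320 DM libraries, adjusted exact p = 0.0013). ZFP57 had a peak in 1 library of each line and TRIM28 in 0.

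Perturbed and vector libraries were compared within each line on equal-length lists, with the same test. In COLO320 DM 0 of 4686 genes tested passed (0.0%), 73 at an unadjusted exact p under 0.05, and 0 of the 9 imprinted genes tested passed at either level. In PC3 DM 0 of 6030 passed (0.0%), 79 unadjusted, and again 0 of 7 imprinted genes at either level. Of these 7, KCNQ1OT1, SNRPN, UBE3A, PEG3 and ZIM2 could not pass even unadjusted, however their peaks were split between vector and perturbed libraries. The same held for PLAGL1 in COLO320 DM. For these genes the test could not decide whether the perturbation mattered. The smallest p that 15 against 3 libraries can give is 0.00123. For 14 against 2 libraries it is 0.00833, which no gene tested could reach. That value needs a peak in the 2 vector libraries alone or in the 14 perturbed ones alone, and such genes were filtered out. No gene could therefore reach an adjusted exact p of 0.05 alone, and the smallest adjusted exact p was 1.0 in both lines.

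The number of imprinted genes with a peak differed between perturbed and vector COLO320 DM libraries mainly on the lists as deposited. Vector lists had 4, 3 and 8 of the 32 genes (5.0 ± 2.65, SD, n = 3) and perturbed lists 11.0 ± 3.32 (SD, n = 15; from 7 to 18, median 11). The lowest perturbed libraries were below the highest vector library. Of all genes, 9.01% (median 9.33%) and 11.9% (median 9.8%) had a peak, and mean list length was 16736 ± 7488 peaks (SD, n = 3) and 27198 ± 27626 (SD, n = 15). Without ecSE1 replicate 2 the latter was 20197 ± 5487 (SD, n = 14), and the medians were 16471 and 18295. With equal-length lists the numbers were 5.0 ± 2.65 and 6.6 ± 1.45 (from 4 to 9), and 5.7% and 5.66% of all genes. In PC3 DM vector lists had 8 and 12 of the genes and perturbed lists 12.1 ± 3.57 (SD, n = 14; from 6 to 17). With equal-length lists they had 4 and 4, and 5.79 ± 2.26 (SD, n = 14; from 0 to 9), with ecSE6 replicate 3 at 0. All of these ranges overlap.

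**Figure D4:**
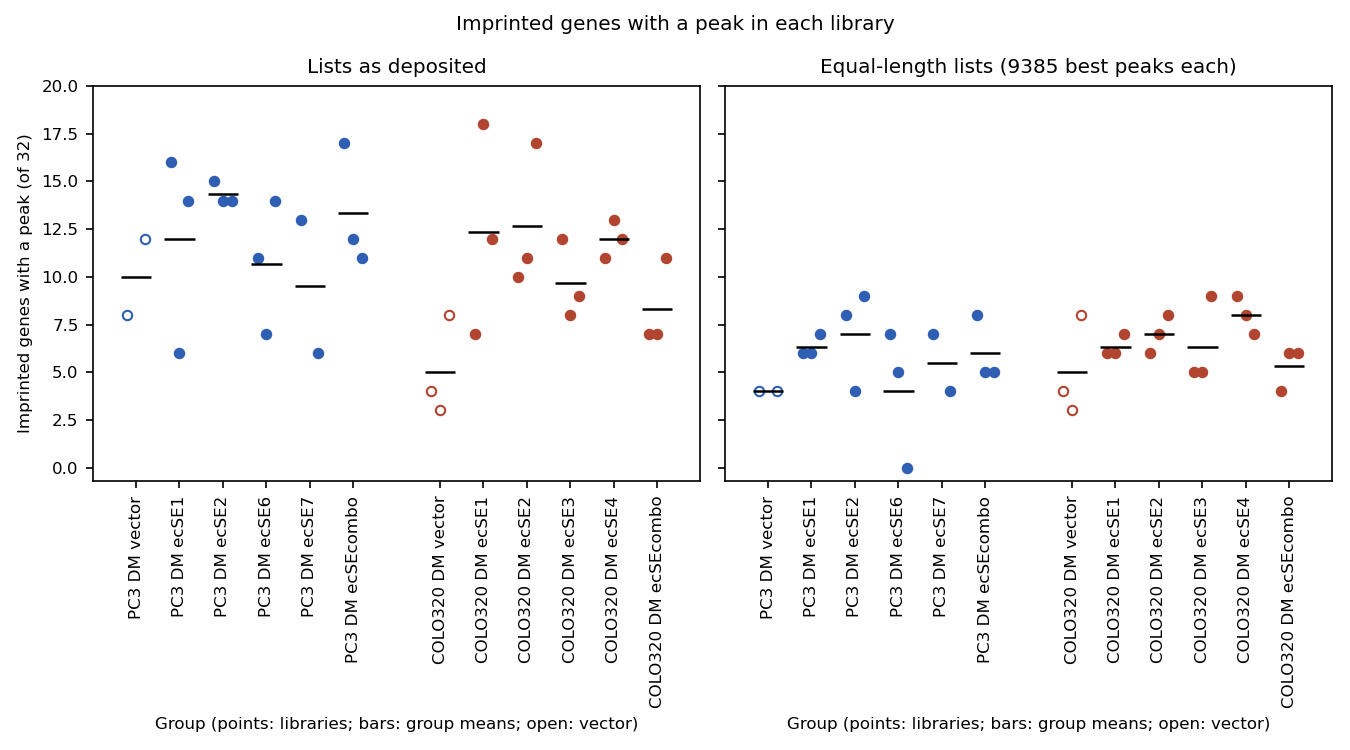
Number of the 32 imprinted genes with a peak (y axis) in each library by group (x axis), from the lists as deposited (left) and equal-length lists (right). Points are libraries, bars group means, and open points vector libraries. COLO320 DM vector lists sit at 3 to 8 genes in both panels, while perturbed COLO320 DM lists fall from 7 to 18 genes on the left to 4 to 9 on the right.

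Of the 9 imprinted genes tested in COLO320 DM at equal length, 5 were more frequent in perturbed and 4 in vector libraries. The 4 were KCNK9 (2 of 3 vector and 5 of 15 perturbed), PLAGL1 (2 of 3 and 7 of 15), DIRAS3 (1 of 3 and 2 of 15) and IGF2R (1 of 3 and 4 of 15). GRB10 had a peak in 0 of 3 COLO320 DM vector libraries and 12 of 15 perturbed ones as deposited (unadjusted exact p = 0.0245, the only imprinted gene under 0.05 in either line, adjusted exact p = 1.0), with 0 bp covered in the vector and 570 ± 383 bp in perturbed libraries (SD, n = 15; from 0 to 1304). At equal length it was 0 of 3 and 7 of 15. MEST and ZIM2 had one in 0 of 3 vector and 8 of 15 perturbed libraries each as deposited, and in 3 and 2 of 15 at equal length. PEG13 had one in 2 of 3 and 13 of 15 under both. By perturbation, KCNQ1OT1 in COLO320 DM was covered for 0, 550 and 1496 bp in vector libraries, 2835, 2381 and 3392 bp with ecSE4, and 453, 748 and 1625 bp with ecSEcombo. The ecSE4 libraries lay above all vector libraries and the ecSEcombo libraries overlapped them, and these single groups were not tested. These lengths are from the lists as deposited, which differed in number of peaks. Vector lists held 16471, 9385 and 24353, ecSE4 lists 21350, 18247 and 25435, and ecSEcombo lists 22239, 16369 and 17129. In PC3 DM, GNAS had a peak in 0 of 2 vector and 10 of 14 perturbed libraries as deposited (unadjusted exact p = 0.125), and in 3 of 14 at equal length. That p is the lowest its 10 libraries with a peak allow. As deposited, SNRPN was the only imprinted gene tested in PC3 DM whose number of libraries allowed an unadjusted exact p under 0.05. In the H19 to IGF2 interval of COLO320 DM, 2 of 3 vector and 14 of 15 perturbed libraries had a peak. The recurrent COLO320 DM sites at GRB10 (9 lists), MEST (7) and GNAS (5) were in 0 of the 3 vector lists as deposited. At equal length the GNAS site was in 0 COLO320 DM lists. The sites at PEG13 and between H19 and IGF2 were in 2 of the 3 vector lists, and that at the upper end of KCNQ1OT1 was in vector replicate 3. These single sites were not tested between perturbed and vector libraries.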

How the data were processed

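CUT&Tag peaks of 34 libraries on hg38 were analysed. The submitters' processing notes name MACS2 2.2.7.1, Bowtie2 2.3.5 and Trim Galore 0.6.6, besides bedtools and SAMtools, without role or order. Per the file names, peaks passed an FDR of 0.001 and blacklisted regions were removed. Whether a control library was used is not stated.

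For every peak a deposited list gives a start, an end, a summit, a display score, a fold (the authors' ratio of summit to local background) and the authors' -log10 p-value and -log10 q-value. The score was not used, and fold and q-value served to rank, filter and describe peaks within a list. Reads were not counted, so depth is unknown. Equal-length lists even out the number of peaks, and whether they remove an effect of depth was not tested.

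Genes came from RefSeq (GRCh38.p14, the same build as hg38), whose table here has no strand or exons, so positions within a gene are given only as distances. A gene had a peak if its span and 2 kb on each side overlapped one by 1 bp. Presence was compared over all genes with a peak in at least 3 libraries and none in at least 3, by Fisher's exact test, two-sided, with Benjamini-Hochberg adjustment and a threshold of 0.05. Covered length is the union of peaks. The members and the other gene lists were chosen with earlier results of these data known. Full values were given for members called in a comparison, in at least 10 lists, in at least 9 libraries more in 1 line, or with a peak at a control region, and counts for the rest. Genes outside the set came from 2 lists, neighbours in imprinted clusters and regulators of imprints. Control regions were placed only through annotated genes. Promoter sequences were matched for 18 members, and others are not shown. The test was tested on simulated data. Alternatives were equal-length lists, q-values of 1e-05 or less, an overlap of 500 bp, the summit inside the window, genes without flanks, protein-coding genes only, no filter on libraries, no combination libraries, no lists over 100000 peaks, each library left out, and replicate numbers as a block. Bins of 5 kb, members without chromosome 8, and equal-length lists with the block were added after seeing the data. Tests used scipy 1.17.1 under Python 3.11.15, with pandas 2.3.3 and numpy 2.4.6 for tables and matplotlib 3.10.9 for figures.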

Additional observations from a re-analysis of the deposited data

How the results depend on the processing

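Between the lines, 1396 genes were called as deposited (469 higher in COLO320 DM, 927 in PC3 DM), with 1 and 2 imprinted genes. Calls in either direction were 704 with protein-coding genes only, 840 with no filter on libraries and 730 without the combination. Higher in COLO320 DM were 782 genes with equal-length lists, 772 with q-values of 1e-05 or less, 126 with protein-coding genes only and 305 with no filter. Higher in PC3 DM were 595, 387, 578 and 535 in the same order, 520 with an overlap of 500 bp and 395 without the combination. Imprinted genes higher in PC3 DM fell to 1 with q-values of 1e-05 or less and with the summit inside the window, and to 0 with no filter and without the combination. PEG13 is not protein-coding, so 0 imprinted genes were higher in COLO320 DM in that setting, and it kept its call in all others. Leaving out each library gave 1126 (without PC3 DM ecSEcombo replicate 1) to 2089 calls (without COLO320 DM ecSE1 replicate 2), 385 to 486 higher in COLO320 DM and 683 to 1619 in PC3 DM, with 1 and 0 to 3 imprinted genes. Perturbed against vector, 0 genes were called under every alternative run in either line. The excess of imprinted genes with a peak in perturbed COLO320 DM libraries was 18.8 percentage points as deposited, 5.0 with equal-length lists, 8.13 with an overlap of 500 bp, and 15.6 to 23.4 when 1 library was left out. The PC3 DM excess was 6.7 points, and 0.446 without vector replicate 1 and 12.9 without vector replicate 2. COLO320 DM minus PC3 DM was -5.86 points (-7.33 to -4.57 when 1 library was left out), and 2.41 with equal-length lists. In covered share it was 0.0893 points (0.0574 to 0.112), and -0.0529 without chromosome 8. Over single imprinted genes, 60 of 1183 alternative values lost the call, 4 gained it and 1119 stayed on the same side of the threshold. Only PEG13, UBE3A and ZIM2 had a call to lose, so the share that stayed does not measure how stable a call was. All 60 losses were at UBE3A and ZIM2, 26 and 25 of them when 1 of 34 libraries was left out. Of the 1183, 17 turned direction, 0 of them with a call. Between the lines GRB10, IGF2R and PEG10 turned with equal-length lists (32.6, 21.5 and 4.86 points, from -8.33, -12.5 and -4.17). With an overlap of 500 bp ZIM2 lost its call (-27.1 points, adjusted exact p = 0.311) and SNRPN gained one (adjusted exact p = 0.00918), so the count stayed at 2. The cause of these shifts was not tested. Replicate numbers did not pair libraries: 0 of 45 same-number pairs of COLO320 DM libraries and 0 of 36 of PC3 DM libraries correlated above 0.1, and 9 of 18 and 2 of 16 libraries correlated best with their own number. With the replicate block 1297 genes were called (416 and 881), 1 and 2 of them imprinted, and with the block on equal-length lists 746 and 550. The block left 0 calls between perturbed and vector libraries.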
